A study of Drosophila montana and Drosophila virilis with 10 samples.

Results

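Whole flies of Drosophila montana and Drosophila virilis that had been acclimated to cold were compared with each other, gene identifier (ID) by gene ID. The comparison used 5 of the 10 libraries of the study, chosen by their titles: 3 acclimated D. montana libraries and 2 acclimated D. virilis libraries. The other 5 libraries, 3 of control D. montana and 2 of control D. virilis kept at ambient temperature, were used only to read the same contrast in other flies. Messenger RNA was sequenced on SOLiD instruments, and reads were counted per gene ID.

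The acclimated D. montana libraries came from strain 175OJ8 of Oulanka in Finland, each from a pool of 10 flies with a stated age of 24, 25 or 26 days after eclosion. The acclimated D. virilis libraries came from strain TOY3F9 of Toyama in Japan, each from a pool of 20 flies with a stated age of 29 or 30 days. The control libraries came from the same strains and pool sizes, with stated ages of 21 to 23 days for D. montana, against 27 and 28 days for D. virilis. In the order of the titles, each of the 10 libraries has a stated age 1 day above the one before it. Neither the sex of the flies nor the temperature and length of the acclimation was given in the sources used here. Species therefore cannot be told apart from strain, pool size, stated age, sequencing depth or the match of each species' reads to the 1 annotation used for both. Every difference below is a difference between these 2 sets of libraries. Nothing in the labels says whether pools of 1 group were reared apart. The p-values thus measure only the spread between these libraries, which may be technical.

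Cold acclimation is the gain in cold tolerance that insects acquire after days or weeks of milder cold. D. montana is a northern species of the D. virilis group that overwinters as an adult in boreal habitats, and D. virilis lives in milder climates. A difference in transcript level between related species can follow from a change in how a gene is regulated, and in reads counted on a single annotation also from how well the sequence of each species fits it.

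All but 1 of the IDs are FlyBase gene numbers, and none of the 15342 IDs occurs in the gene table used here, which covers a D. montana assembly (ASM3504440v1). No gene name, function, coordinate, length or sequence could therefore be given, and the 16 lists of gene symbols drawn up for cold response, heat shock proteins, the clock, muscle, germ line and other groups could not be matched and were not tested. Markers of tissue and sex could not be checked for the same reason. In whole flies, fewer cells of a type and less RNA per cell cannot be told apart.

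The acclimated libraries differed first in how their reads were classed. Every file counts 0 unaligned reads and 0 reads of low alignment quality, so the shares may not be of all reads sequenced. Whether the class of reads aligned to more than 1 place counts reads or alignments is not stated. In D. montana 23.1%, 26.4% and 23.4% of the reads in the file were assigned to a gene ID, against 6.85% and 7.78% in D. virilis. Reads aligned to more than 1 place, which are not assigned to an ID, took 23.8%, 18.4% and 22.4% in D. montana, against 82.7% and 83.4% in D. virilis. Reads placed once but outside every ID took 53.1%, 55.2% and 54.2% in D. montana, against 10.4% and 8.86% in D. virilis. The species did not overlap in any of these 3 shares. The mean differences, D. montana minus D. virilis, were 17.0, −61.5 and 44.5 percentage points, each with p = 0.10 in an exact permutation test, two-sided, which is the smallest p that 3 against 2 libraries allow (0.10 also after adjustment over the 3 shares). The 95% Wilson intervals of the shares reached at most 0.061 percentage points from the value and cover counting error only.

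**Figure D1:**
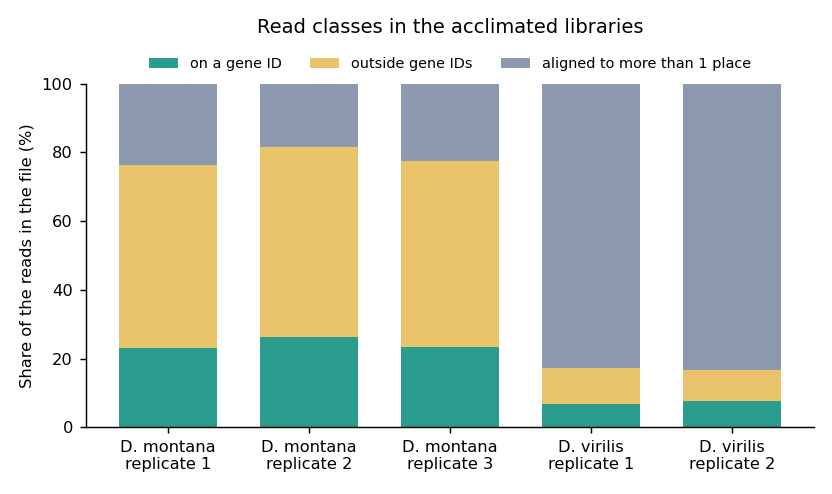
Share of the reads in each file (y axis, %) in the 3 acclimated D. montana and 2 acclimated D. virilis libraries (x axis), split into reads on a gene ID, reads outside gene IDs and reads aligned to more than 1 place. The last class takes 18.4% to 23.8% in D. montana, against 82.7% to 83.4% in D. virilis.

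The order of the species in assigned reads depended on the reads taken as the whole. Without the reads aligned to more than 1 place, a gene ID received 30.9% ± 1.2 of the reads in D. montana (SD, n = 3) and 43.2% ± 5.0 in D. virilis (SD, n = 2), a difference of −12.3 percentage points (exact permutation test, two-sided p = 0.10). The files held 7823293, 6845747 and 9545667 reads in D. montana, against 14425895 and 16917956 in D. virilis, and of these 1806370, 1804897 and 2235850 were gene reads in D. montana, against 987461 and 1316804 in D. virilis. The D. virilis libraries thus had more reads in the file and fewer gene reads. Levels are given as counts per 1e6 gene reads (CPM). For named IDs, for overlap in CPM and for groups by level, gene reads were scaled by edgeR's trimmed mean of M-values (TMM). The limits that follow are without scaling. With 3 counts as the upper limit for an ID with no read, its level could still be 1.34 to 1.66 CPM in D. montana, against 2.28 to 3.04 CPM in D. virilis, for counting error alone.

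Gene reads were spread over more IDs in D. montana. The IDs with most reads that together took 50% of the gene reads numbered 507, 625 and 630 in the D. montana libraries, against 287 and 315 in the D. virilis libraries. The 100 IDs with most reads took 26.5% ± 2.4 in D. montana (SD, n = 3) and 34.3% ± 0.81 in D. virilis (SD, n = 2). The libraries of the species did not overlap in either measure (exact permutation test, two-sided p = 0.10 for each, the smallest possible). For the 20 IDs with most reads the shares were 12.8%, 11.2% and 10.2% in D. montana, against 13.7% in both D. virilis libraries, which do not overlap either (exact permutation test, two-sided p = 0.20). The plot of cumulative shares shows how the curves part with rank.

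**Figure D2:**
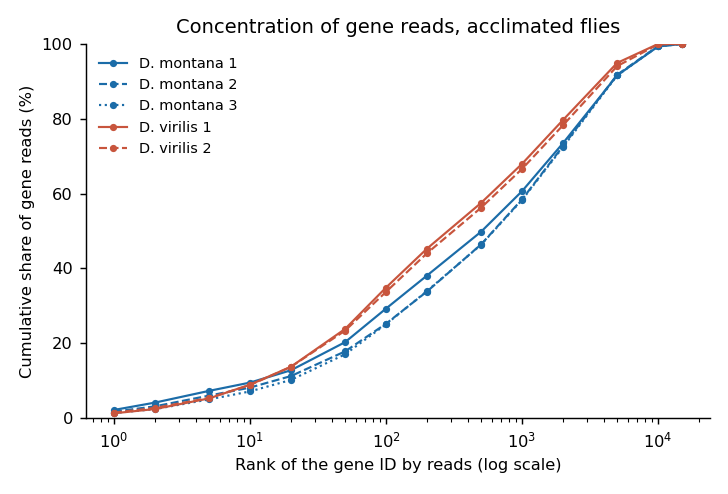
Cumulative share of gene reads (y axis, %) against the rank of the gene ID by reads in its own library (x axis, log scale), 1 line per acclimated library. At rank 100 the 3 D. montana lines lie between 25.1% and 29.3% and the 2 D. virilis lines between 33.7% and 34.9%.

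Largely the same IDs carried most reads in both species. Of the 100 IDs with the highest mean CPM in D. montana, 74 were also among the 100 of D. virilis, and of the top 500 in each species, 315 were shared. Across 12105 IDs with at least 10 reads over the 5 libraries, Spearman's rho of CPM was 0.97 to 0.98 between D. montana libraries and 0.94 between the D. virilis libraries, but 0.78 to 0.83 between libraries of different species. Acclimated and control libraries of 1 species ranked the IDs more alike than the species did, with rho of 0.96 to 0.97 within D. montana, against 0.92 to 0.95 within D. virilis. These coefficients describe IDs, which are not independent replicates, and depth and sequence composition are shared within a species.

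FBgn0016474 and FBgn0206566 had the highest levels over both species (geometric mean of the species means, not corrected for gene length). After TMM scaling, FBgn0016474 stood at 20582, 15413 and 12080 CPM in D. montana, against 10325 and 10393 CPM in D. virilis. FBgn0206566 stood at 18551, 11358 and 9452 CPM in D. montana, against 7308 and 7117 CPM in D. virilis. For both IDs every D. montana library lay above both D. virilis libraries. The log2 fold change, D. montana over D. virilis, was 0.63 for FBgn0016474 (SE 0.24, adjusted p = 0.041 by edgeR) and 0.86 for FBgn0206566 (SE 0.27, adjusted p = 0.020 by edgeR). Without D. virilis library 1 or 2, the log2 fold change was 0.61 and 0.64 for FBgn0016474 and 0.87 and 0.85 for FBgn0206566, close to the values with both, but neither ID passed. In these fits the lone D. virilis library is assumed to vary like the D. montana libraries. Without library 1 the adjusted p by edgeR was 0.14 for FBgn0016474 and 0.065 for FBgn0206566, and without library 2 it was 0.13 for FBgn0016474 and 0.071 for FBgn0206566. FBgn0016474 also missed the threshold without D. montana library 2 (edgeR adjusted p = 0.051) and with a limma-voom spread for each species (adjusted p = 0.076). Neither ID passed in control flies, where the log2 fold change was 0.23 for FBgn0016474 (SE 0.25, adjusted p = 0.47 by edgeR) and 0.18 for FBgn0206566 (SE 0.27, adjusted p = 0.60 by edgeR). For neither did the difference between acclimated and control flies pass the test (adjusted p = 0.64 and 0.51 by edgeR).

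More IDs had reads in D. montana. At least 1 read was found on 13824, 13562 and 13891 IDs in the D. montana libraries, against 9949 and 11300 in the D. virilis libraries. With every library thinned to 987461 gene reads the numbers were 13165, 12837 and 13054 in D. montana, against 9949 and 10967 in D. virilis, so the gap remained with gene reads matched. Thinning did not match the reads in the file or the share aligned to more than 1 place. At least 10 reads after thinning were found on 8138 to 8159 IDs in D. montana, against 7221 and 7451 in D. virilis, a smaller gap. Most of the gap therefore lay in IDs with few reads.

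IDs read in a single species were mostly D. montana IDs of low count. With 2 libraries of each species thinned to the same number of gene reads, 1448 to 1565 IDs had reads in both D. montana libraries and none in D. virilis, over the 3 possible pairs of D. montana libraries. Only 54 to 71 IDs had reads in both D. virilis libraries and none in that D. montana pair. At 10 or more reads in both libraries of one species and none in the other, the counts were 53 to 66 IDs for D. montana and 13 to 17 for D. virilis. At full depth, 1670 IDs had reads in all 3 acclimated D. montana libraries and in neither acclimated D. virilis library, with a median of 3.67 reads per library. Of these, 1203 had reads in all 3 control D. montana libraries, 754 had none in either control D. virilis library, and 481 (28.8%) met both conditions. The rest of the 1670 beyond the 754 had reads in a control D. virilis library. The control D. virilis libraries held fewer gene reads than the acclimated ones, 650517 and 931704, so an ID had no read there more easily. The same shares over all 15342 IDs were not counted, so these counts are a description.

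The levels of 9573 IDs that passed a filter on low counts were tested. In acclimated flies 5309 IDs (55.5%) differed between the species at an edgeR adjusted p under 0.05, 2769 (28.9%) higher and 2540 (26.5%) lower in D. montana (quasi-likelihood F-test, Benjamini-Hochberg adjustment over all IDs tested). The 5 libraries of the 2 species did not overlap in CPM for 72.2% of the tested IDs. With so few libraries, some IDs separate even without a species difference. IDs that passed the filter only through the species where they were high had to separate. The log2 fold change had a median of 0.04, with quartiles of −0.76 and 1.12, over all tested IDs. It was within 2-fold either way for 5200 IDs (54.3%).

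Differences beyond 2-fold were also tested as such. By edgeR's glmTreat against a 2-fold difference, 2136 IDs (22.3%) were called, 1292 (13.5%) higher and 844 (8.82%) lower in D. montana. These include IDs that passed the filter only through the species where they were high. Of the 6723 IDs with at least 10 reads in all 5 libraries, 480 were called higher and 610 lower in the same fit. Scaled and fitted alone, those 6723 IDs gave 604 higher and 405 lower, so the balance of directions is not settled by these counts. Among all calls of the plain test, the median log2 fold change was 1.80 for IDs higher in D. montana, with the 184 of them that had no read in D. virilis set at their bound of 3 counts over the group. The median was −1.22 for IDs lower in D. montana, of which 8 had no read in D. montana. At least an 8-fold difference was seen for 456 of the 2769 higher IDs (16.5%) and 222 of the 2540 lower IDs (8.74%), counted with the same bounds. Among the called IDs with at least 10 reads in all 5 libraries, 33 were that much higher and 62 that much lower.

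The balance of directions rested on scaling and on the filter. Of the called IDs, 52.2% were higher in D. montana with TMM scaling. With gene read totals and no scaling this was 67.8% (3527 higher, 1675 lower), and with library sizes taken without the 20 IDs with most reads it was 65.5% (3384 higher, 1779 lower). These settings moved the median log2 fold change of all tested IDs to 0.37 and 0.32, against 0.04 with TMM scaling, and upper quartile scaling left it at 0.12. Of the 6723 IDs with at least 10 reads in all 5 libraries, 3650 were called with the same fit (54.3%), 1420 higher and 2230 lower in D. montana. When those 6723 IDs were scaled and fitted alone, the calls were 1795 higher and 1812 lower. Directions of small differences are therefore relative to the scaling, and 4420 of the 5309 called IDs kept their call and direction under all 4 other scalings (2745 higher, 1675 lower).

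**Figure D3:**
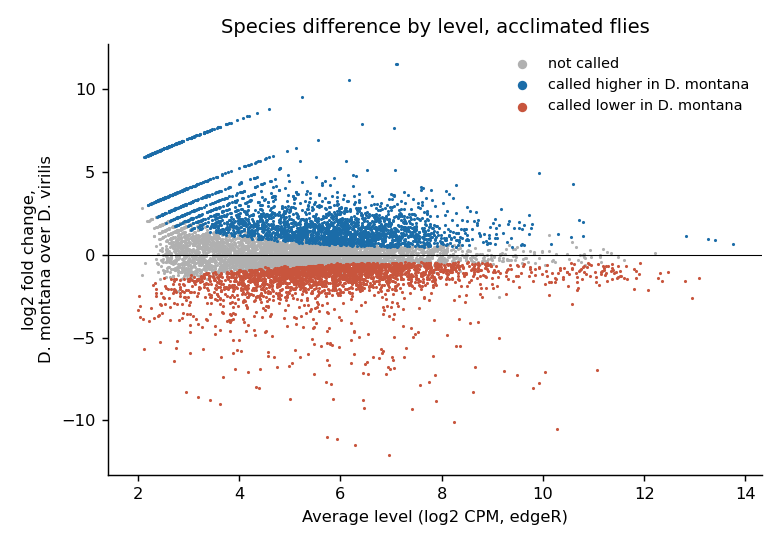
log2 fold change, D. montana over D. virilis (y axis), against the average level of the ID (x axis, log2 CPM) for the 9573 IDs tested in acclimated flies, 1 point per ID. Called IDs higher in D. montana (2769) and lower (2540) lie on both sides of 0, and the rows of points at the upper left are IDs with few or no reads in D. virilis.

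As a description, the calls were also read by level. Tested IDs were split into 3 equal groups of 3191 by the mean of the species' levels on the log2(CPM + 1) scale. This mean falls with the level of either species, and all 184 tested IDs with no D. virilis read and all 8 with no D. montana read were in the lowest group, FBgn0256695 among them. IDs that passed the filter only through the species where they were high had to differ, so the counts of the lowest group are no support for a trend with level. In the lowest group 1199 IDs (37.6%) were higher and 451 (14.1%) lower in D. montana, with a median log2 fold change of 0.83. In the middle group 765 (24.0%) were higher and 871 (27.3%) lower, with a median of −0.11. In the highest group 805 (25.2%) were higher and 1218 (38.2%) lower, with a median of −0.24. Without scaling the medians were 1.15, 0.22 and 0.09, in the same order, with 1097 higher and 777 lower in the highest group, so the excess of lower calls there turned. The D. montana libraries had more gene reads, and the part of this in the split was not tested. The called IDs that were higher in D. montana took 32.3% to 35.8% of the gene reads there, against 10.1% and 11.5% in D. virilis. The called IDs that were lower took 30.0% to 34.0% in D. montana, against 60.2% and 62.8% in D. virilis. These IDs were called from the same libraries, so the direction of both gaps follows from the choice and is no separate result.

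The D. virilis libraries varied more than those of D. montana. The biological coefficient of variation over the tested IDs was 14.8% among the 3 acclimated D. montana libraries and 29.4% between the 2 acclimated D. virilis libraries. The fit took 1 spread for both, 18.9%. With limma-voom and a spread for each species, 4664 IDs were called, 2378 higher and 2286 lower in D. montana. Leaving out single libraries gave 3915 calls (without D. montana library 3) to 5527 calls (without D. virilis library 2), and 3515 of the 5309 IDs (66.2%) were called in the same direction in all 5 of these fits. In the fits without a D. virilis library, the spread comes from D. montana alone, and the lone D. virilis library is assumed to vary like it.

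The same contrast could be read in the control libraries, which share no library with the acclimated ones but have the same strains, annotation and difference in pool size. There 4649 of 9249 tested IDs were called (50.3%), 2400 higher (25.9%) and 2249 lower (24.3%) in D. montana. Of the 5046 IDs called in acclimated flies that were also tested in controls, 4859 (96.3%) had the same direction in controls, and 3682 (73.0%) were called there in that direction. Among the 4031 IDs not called in acclimated flies, 72.3% had the same direction. Of the 2001 IDs that differed by more than 2-fold in acclimated flies, 1802 (90.1%) were called in the same direction in controls. Across all 9077 IDs tested in both, the log2 fold changes had Pearson r = 0.85 and Spearman rho = 0.86, as a description over IDs.

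**Figure D4:**
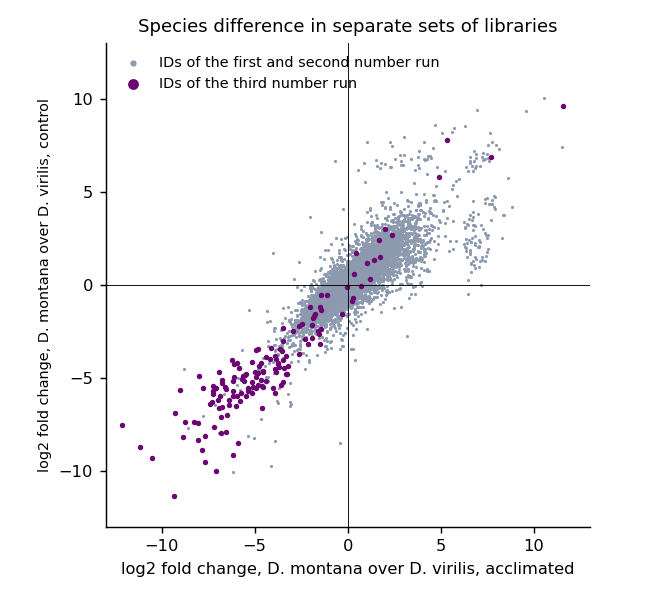
log2 fold change, D. montana over D. virilis, in acclimated flies (x axis) and in control flies (y axis) for the 9077 IDs tested in both, 1 point per ID. Points follow the diagonal, and the larger points, IDs numbered from FBgn0256559 upward, lie mostly at the lower left.

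Few IDs had a species difference that was shown to depend on acclimation. In the fit of all 10 libraries, 22 of 9811 IDs (0.224%) passed the edgeR test of the difference itself. The D. montana over D. virilis difference was more positive in acclimated than in control flies for 14 of them (0.143%) and more negative for 8 (0.0815%). An unadjusted p under 0.05 was found for 1117 IDs (11.4%). Of these 22, 13 were called between the species in acclimated flies and 19 in control flies. Over all tested IDs, 55.5% were called in acclimated flies and 50.3% in control flies. An ID with unlike differences has to differ in at least 1 condition, so these counts are no separate result. The number that passed the edgeR test of the difference itself moved when single libraries were left out. It was 14 without acclimated D. montana library 2, 43 without acclimated D. virilis library 1 and 194 without acclimated D. virilis library 2. Without either of these D. virilis libraries that group is 1 library, assumed to vary like the other groups. In the separate fits, 17 of the 5046 IDs called in acclimated flies and tested in controls were called in opposite directions. Of these 17, 5 passed the test of the difference itself, and the others are not shown to have turned.

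The ID numbers fall into 3 separated runs, and the species differed most in the third. FlyBase numbers genes roughly in the order in which they are added. The first run holds 213 IDs up to FBgn0086440, the second 14270 IDs from FBgn0197334 to FBgn0211799, and the third 858 IDs from FBgn0256559 upward. The runs were set off with values of these data known, so the values are a description. IDs of the third run took 0.82%, 1.07% and 0.95% of the gene reads in acclimated D. montana, against 4.71% and 3.66% in acclimated D. virilis, and the D. virilis mean was 4.41 times that of D. montana. In control flies the shares were 0.92% ± 0.10 in D. montana (SD, n = 3) and 2.76% ± 0.72 in D. virilis (SD, n = 2). Without the 10 IDs of that run with most reads, the acclimated shares were 0.238% to 0.305% in D. montana, against 2.19% and 2.50% in D. virilis, so the gap remained without them. The first run took 6.09% ± 0.57 of gene reads in D. montana (SD, n = 3) and 6.50% ± 0.13 in D. virilis (SD, n = 2), a difference within the spread of the D. montana libraries (exact permutation test, two-sided p = 0.40).

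Most IDs of the third run were not tested, since their counts were low in both species. Of the 858, 392 had a read in any acclimated D. montana library and 271 in any acclimated D. virilis library, with more libraries and more gene reads behind the D. montana number. Only 167 passed the filter on low counts, 134 of them called lower (80.2%) and 15 called higher (8.98%) in D. montana, against 26.5% and 28.9% of all tested IDs. Their median log2 fold change was −4.63, the same with the 6 IDs without D. virilis reads and the 6 without D. montana reads set at their bounds. An ID that passed only through its D. virilis reads had to differ, so the 47 IDs with at least 10 reads in all 5 libraries were read apart: 36 were called lower (76.6%) and 7 higher (14.9%), with a median of −3.50. Over all 6723 such IDs, 2230 were called lower (33.2%) and 1420 higher (21.1%), with a median of −0.25. The pattern did not turn without scaling, where 132 of the 167 IDs were called lower. Leaving the run out of the fit changed the count of calls little, to 5224. Whether these IDs are less well matched by D. montana reads was not tested.

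The largest negative differences were mostly of the same run, which holds 0.699% of the IDs with at least 10 reads in all 5 libraries. Among the 20 called IDs with the most negative log2 fold change, at least 10 reads in all 5 libraries and no overlap between species, 17 were of the third run, and all 20 were called in the same direction in controls. They were 24.2-fold to 266-fold lower in D. montana. Of all IDs called beyond 2-fold lower and tested in controls, 93.4% were called in the same direction there, so 20 of 20 is near that share. The 20 with the most positive log2 fold change were 10.2-fold to 30.0-fold higher in D. montana. Of these, 19 were of the second run, which holds 97.5% of the IDs with at least 10 reads in all 5 libraries, so that count is near the background. Again all 20 were called in the same direction in controls, against 87.8% of all IDs called beyond 2-fold higher and tested there. The condition of 10 reads is a higher level in D. virilis, which had fewer gene reads. Among all tested IDs, with the bounds, 459 were at least 8-fold higher and 222 at least 8-fold lower. With at least 10 reads in all 5 libraries these were 33 and 62, so the sizes of the ranges are not compared between directions.

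Of the IDs with at least 10 reads in all 5 libraries, FBgn0257407 had the largest positive difference. It had 1059, 2064 and 1567 CPM in acclimated D. montana, against 37.4 and 65.4 CPM in acclimated D. virilis, on 2023 to 4139 reads and 32 to 76 reads. The libraries of the species lay far apart. The ID was chosen as the extreme among called IDs with no overlap, so its separation and p in acclimated flies are no separate support. The log2 fold change reached 4.90 in acclimated flies (SE 0.37, adjusted p = 4.4e-06 by edgeR) and 5.77 in control flies (SE 0.35, adjusted p = 4.8e-08 by edgeR). The difference between these values did not pass the test (−0.82, SE 0.49, edgeR adjusted p = 0.54).

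FBgn0257252 had the largest negative difference under the same condition of at least 10 reads in all 5 libraries. It had 9.42, 10.5 and 5.62 CPM in acclimated D. montana, against 2866 and 1632 CPM in acclimated D. virilis, on 14 to 21 reads and 1896 to 2450 reads. Every D. montana library lay far below both D. virilis libraries. This ID was chosen in the same way, so here too the separation and p in acclimated flies are no separate support. The log2 fold change reached −8.06 in acclimated flies (SE 0.34, adjusted p = 6.8e-08 by edgeR) and −7.41 in control flies (SE 0.29, adjusted p = 1.3e-09 by edgeR). The difference between these values did not pass the test either (−0.61, SE 0.48, adjusted p = 0.66 by edgeR). Both FBgn0257407 and FBgn0257252 belong to the third run, so under that condition this run held the extreme of each direction.

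FBgn0256695 had the highest D. montana level among the 659 called IDs with at most 3 reads in each acclimated D. virilis library. It had 335, 148 and 181 CPM in acclimated D. montana, on 640, 297 and 451 reads, and no read in either acclimated D. virilis library. Without TMM scaling, its level per gene read was 182-fold higher in D. montana with 3 counts taken over the D. virilis group. The lower limit of the exact 95% interval of this ratio was 148, for counting error only. No test is given, since the ID was chosen for its near absence in D. virilis and passed the filter on low counts only through D. montana. The control libraries showed the same, with 120, 102 and 157 reads in D. montana and none in D. virilis.

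FBgn0256907 had the highest D. virilis level among the 51 called IDs with at most 3 reads in each acclimated D. montana library. It had 1, 3 and 0 reads in acclimated D. montana, against 1274 and 90 reads in acclimated D. virilis. The D. virilis libraries thus differed widely, at 1490 and 77.5 CPM. Without TMM scaling, the level per gene read over summed reads, here D. virilis over D. montana, was 865 times as high. Its exact 95% interval was 337 to 3180, for counting error only. The ratio of the mean TMM-scaled CPM was 1165. No test is given here either, since the ID was chosen for its near absence in D. montana and passed the filter only through D. virilis. Without D. virilis library 1 the fitted log2 fold change, D. montana over D. virilis, was −6.82, against −10.12 with all libraries. In controls it had 0, 1 and 3 reads in D. montana and 3 and 63 reads in D. virilis, too few to be tested there. Like FBgn0257407, FBgn0257252 and FBgn0256695, it is of the third run.

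**Figure D5:**
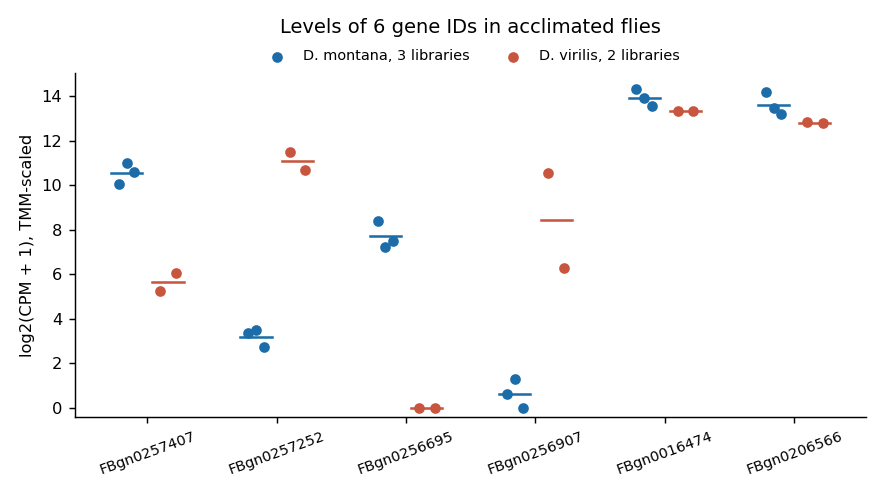
Levels of the 6 named IDs (x axis) on the log2(CPM + 1) scale after TMM scaling (y axis), 1 point per acclimated library and lines at the group means, with D. montana left of D. virilis for each ID. FBgn0257407 and FBgn0256695 are higher in D. montana, FBgn0257252 and FBgn0256907 lower, and FBgn0016474 and FBgn0206566 are high in both.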

How the data were processed

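The authors' deposited files hold raw read counts per gene ID. HTSeq was used, per the submitters' processing notes, with the settings, aligner, annotation and genome build not given in the sources used here. In every file 5 closing lines count reads without an ID. They held 73.6% to 93.2% of the reads in the acclimated files and entered neither library sizes nor tests. Reads of near-identical genes would fall among those aligned to more than 1 place, and it is not stated whether that line counts reads or alignments, so counts of such genes and shares of reads are uncertain.

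From these counts, edgeR 4.0.16 with limma 3.58.1 in R 4.3.3 gave TMM scaling, its default filter by group (minimum count 10, minimum total 15) and quasi-likelihood F-tests, called at an adjusted p under 0.05. The SE was derived from the fold change and the F statistic. The species contrast was fitted on the 5 acclimated libraries, and in controls on the 5 control libraries. The interaction was fitted on all 10. DESeq2 1.42.0 and limma-voom were alternatives. The fits were tested on simulated data with few changed IDs and the same spread in both species. Those settings differ from these data, so that run is no support for the calls. No pair of replicate libraries agreed within sampling noise (chi-square per degree of freedom 3.78 to 9.45 over IDs).

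Without gene names, named IDs were 1 in each direction with the largest log2 fold change among called IDs with at least 10 reads in all 5 libraries and no overlap, 1 in each direction with at most 3 reads per library in the other species, and the 2 with the highest levels. Members and lists were chosen with earlier results of these data known.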

Additional observations from a re-analysis of the deposited data

Results flagged for a closer look

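The difference between D. montana and D. virilis was not the same in acclimated and control flies for 22 IDs, by edgeR's test of the interaction itself. The number without single libraries is given above.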

How the results depend on the processing

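The count of 5309 IDs differing between acclimated D. montana and acclimated D. virilis stayed within 1.5 times under every alternative run. FBgn0257407 and FBgn0257252 were chosen as extremes among called IDs with no overlap, so passing on the same libraries is no separate support. Over the 17 alternatives that gave a value, the log2 fold change was 4.56 to 5.39 for FBgn0257407. It was −8.40 to −7.61 for FBgn0257252. With at least 10 reads required in every library, calls beyond 2-fold numbered 1009, against 2136, and 49.8% of the plain calls were higher in D. montana. With no scaling, 77.8% of the calls beyond 2-fold were higher in D. montana, against 60.5%. Without single libraries, calls beyond 2-fold numbered 1475 to 2431, and calls in controls 3363 to 4303. In controls 49.9% of calls were higher in D. montana with upper quartile scaling, against 51.6%.

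The interaction count was 80 with no filter and 13 with at least 10 reads in every library, and 14 to 194 without single libraries. The more positive ones were 63.6% of these calls, 24 of 32 with no scaling, and 45.5% (without control D. montana library 1) to 81.8% (without control D. virilis library 1) when single libraries were left out.

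The share of reads on IDs turned to −12.3 percentage points, D. montana minus D. virilis, without reads aligned to more than 1 place. Without single libraries it was 15.9 to 17.6. The gap in detected IDs, 3134.5 on average, was 1934 at 10 reads and 813 at 10 reads after thinning. That thinned value, the spread for each species and the fit without the third run were chosen after seeing the data.

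Replicate numbers did not pair the libraries (correlations of same-numbered deviations 0.0034 and 0.032), and with the replicate number as a replicate block 4085 IDs were called, 2155 higher in D. montana. The lower number of gene reads in D. virilis limits what can be said of IDs with few reads.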
